A study of Mus musculus with 72 samples.

Results

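The carriers of the Slc25 family were examined as the genes whose symbol is Slc25a followed by a number. In the array's annotation 45 of the 20239 named genes met this rule, each measured by 1 probe set, and all 45 matched the RefSeq gene table by their Entrez number. Transcript levels came from 72 whole-transcript arrays of 36 male C57BL/6 mice. The muscles were the slow, postural soleus (SOL) and the fast tibialis anterior (TA). Both muscles came from the same animal, taken at 1 of 6 Zeitgeber times (ZT, hours after lights on) spaced 4 h apart, with lights off at ZT12. The comparisons asked how the carriers differ between genotypes, between slow and fast muscle, and over the day.

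The 18 mKO animals carried floxed Bmal1 and a Cre transgene driven by the promoter of Mlc1f, a fast myosin light chain gene, so that Bmal1 is inactivated in muscle fibres. The 18 Ctrl animals were littermates without Cre, so that loss of Bmal1 and presence of Cre cannot be told apart. Nothing in the labels says which fibres had lost Bmal1. All animals were 5 months old, were kept at 22 °C on a cycle of 12 h of light and dark, and had chow and water freely. Each of the 24 groups of muscle, genotype and time held 3 arrays. The arrays are of whole muscle, so fewer cells of a type and less RNA per cell cannot be told apart.

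Slc25 proteins carry metabolites across the inner mitochondrial membrane, which is otherwise closed to charged molecules. They let ADP and phosphate in and ATP out, feed acylcarnitines to fat oxidation, move reducing equivalents through the malate-aspartate shuttle, and supply the matrix with amino acids, nucleotides, cofactors and iron. Slc25a17 works in the peroxisome membrane and Slc25a46 in the outer mitochondrial membrane, where it takes part in fusion and fission. Bmal1 encodes a transcription factor of the circadian clock, which acts with Clock at E-boxes.

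Values are log2 signals, and differences are given in log2 units, so that 1 unit is a doubling of the signal. The median signal of an array was 6.67 to 6.84, and precision is limited by the number of arrays. The probe set of Arntl, the symbol of Bmal1, did not check the labels by its mean level, which was not called in either muscle. Its mKO minus Ctrl difference was 0.09 ± 0.060 (SE) in SOL, with an adjusted p of 0.508, and -0.07 ± 0.059 in TA, with an adjusted p of 0.465. The labels do not say whether the deleted part of the gene lies under this probe set. Its 24 h amplitude was 1.34 in SOL Ctrl and 0.59 in SOL mKO, and 1.09 in TA Ctrl and 0.33 in TA mKO. Dbp, a gene driven by Bmal1 and Clock, was lower in mKO, with a difference of -0.69 in SOL and -1.56 in TA. The labelled muscles carried their fibre markers, with a TA minus SOL difference of -6.14 for slow Myh7 and 2.76 for fast Myh4. The TA array of Ctrl replicate A at ZT0 held liver transcripts, with 16 liver markers a median of 4.27 above the other arrays of its group. The carriers on that array differed from the other arrays by a median of 0.0033, but Slc25a13 stood 1.22 and Slc25a1 0.71 above them. Its summed liver level was 14.9, and 4 more arrays had raised sums, namely TA Ctrl ZT4 C (12.2), SOL Ctrl ZT4 C (11.9), SOL Ctrl ZT0 A (11.1) and TA mKO ZT0 C (10.7), against group medians of 9.82 to 9.87. Without these 5 arrays 96 of the 100 calls of single carriers were kept. Animals bore identification numbers of 3 series, BM3 (23 animals), BM2* (7) and BM2 (6), whose meaning the labels do not give. The series ran with time, with BM3 animals alone at ZT0 and ZT4 and none at ZT12. At ZT20 all mKO animals were of the BM2 or BM2* series and all Ctrl animals of BM3, so at that time genotype and series cannot be told apart. At ZT16 all 3 mKO animals but 1 Ctrl animal were of BM3, and the other 2 Ctrl animals were of BM2*. BM2 and BM2* animals of both genotypes were present at ZT8 and ZT12 alone. BM3 animals of both genotypes were present at ZT0, ZT4, ZT8 and ZT16, so genotype effects within the series cover different times.

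Promoter sequence from RefSeq (GRCm38.p6) was found for 35 of the 45 carriers, in 45 windows of the 250 bases before a start site. Slc25a30 is shown because it had the largest genotype effect, and Slc25a33 and Slc25a36 because these nucleotide carriers changed in opposite directions. Slc25a30 lies at chr14:75787038-75787287, Slc25a33 at chr4:149774268-149774517 and Slc25a36 at chr9:97111042-97111291, all on the minus strand, and each window ends at the base before the start site. Capitals mark the E-box CACGTG, which reads the same on both strands.
Slc25a30: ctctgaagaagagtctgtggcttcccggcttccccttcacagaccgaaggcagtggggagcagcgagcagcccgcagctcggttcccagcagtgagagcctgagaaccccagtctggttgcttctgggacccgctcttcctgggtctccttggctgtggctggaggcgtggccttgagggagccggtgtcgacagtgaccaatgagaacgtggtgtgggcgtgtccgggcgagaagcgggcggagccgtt
Slc25a33: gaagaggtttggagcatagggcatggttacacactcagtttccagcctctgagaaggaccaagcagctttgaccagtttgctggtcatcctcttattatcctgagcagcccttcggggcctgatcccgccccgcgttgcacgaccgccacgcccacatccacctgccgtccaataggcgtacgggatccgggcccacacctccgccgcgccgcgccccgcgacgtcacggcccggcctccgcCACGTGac
Slc25a36: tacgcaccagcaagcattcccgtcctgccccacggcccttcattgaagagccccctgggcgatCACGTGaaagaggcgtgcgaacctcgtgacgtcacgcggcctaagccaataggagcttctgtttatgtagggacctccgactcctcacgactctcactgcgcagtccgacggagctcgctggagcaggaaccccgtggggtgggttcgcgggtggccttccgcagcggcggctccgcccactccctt

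The E-box began at position -8 from the start site in Slc25a33 and at position -187 in Slc25a36, and these letters were not found in the Slc25a30 window. Over the family it stood in 8 of 45 windows (17.8%), against 6.02% of 32851 windows of the same length over all genes. Those 8 windows belonged to 7 carriers, and 2 of the 3 windows of Slc25a14 overlap and share their match. Of the 13 carriers called for genotype in at least 1 muscle, 10 had a window and 4 held the E-box, namely Slc25a13, Slc25a15, Slc25a33 and Slc25a36. Of the 32 not called in either, 25 had a window and 3 held it, namely Slc25a1, Slc25a14 and Slc25a31. The D-box, searched as TTATGTAA or TTACGTAA on both strands, was in 0 member windows, against 0.931% of all. The nuclear receptor motif AGGTCA, searched on both strands, was in 4 member windows (8.89%), against 14% of all. These are matches of letters and not measured binding.

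The genotype test called 9 of the 45 carriers in SOL and 11 in TA, and 7 were called in both muscles. The share of all genes called in both was not counted. The genotype effect is mKO minus Ctrl, averaged over the 6 times with equal weight, tested with limma and called at an adjusted p under 0.05. In SOL 4 carriers rose and 5 fell of 45, where 7.1% of all genes were called (3.56% up, 3.54% down). In TA 6 rose and 5 fell, where 14.8% of all genes were called (6.76% up, 8.06% down). Slc25a34, Slc25a36 and Slc25a46 rose and Slc25a20, Slc25a30, Slc25a33 and Slc25a37 fell in both muscles, and 0 carriers were called in opposite directions. Slc25a13 and Slc25a23 were called in SOL and not in TA, and Slc25a15, Slc25a17, Slc25a42 and Slc25a44 in TA and not in SOL. The median effect over all 45 carriers was 0.02 in SOL and 0.02 in TA, against 0.00091 and 0.02 over all genes.

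**Figure D1:**
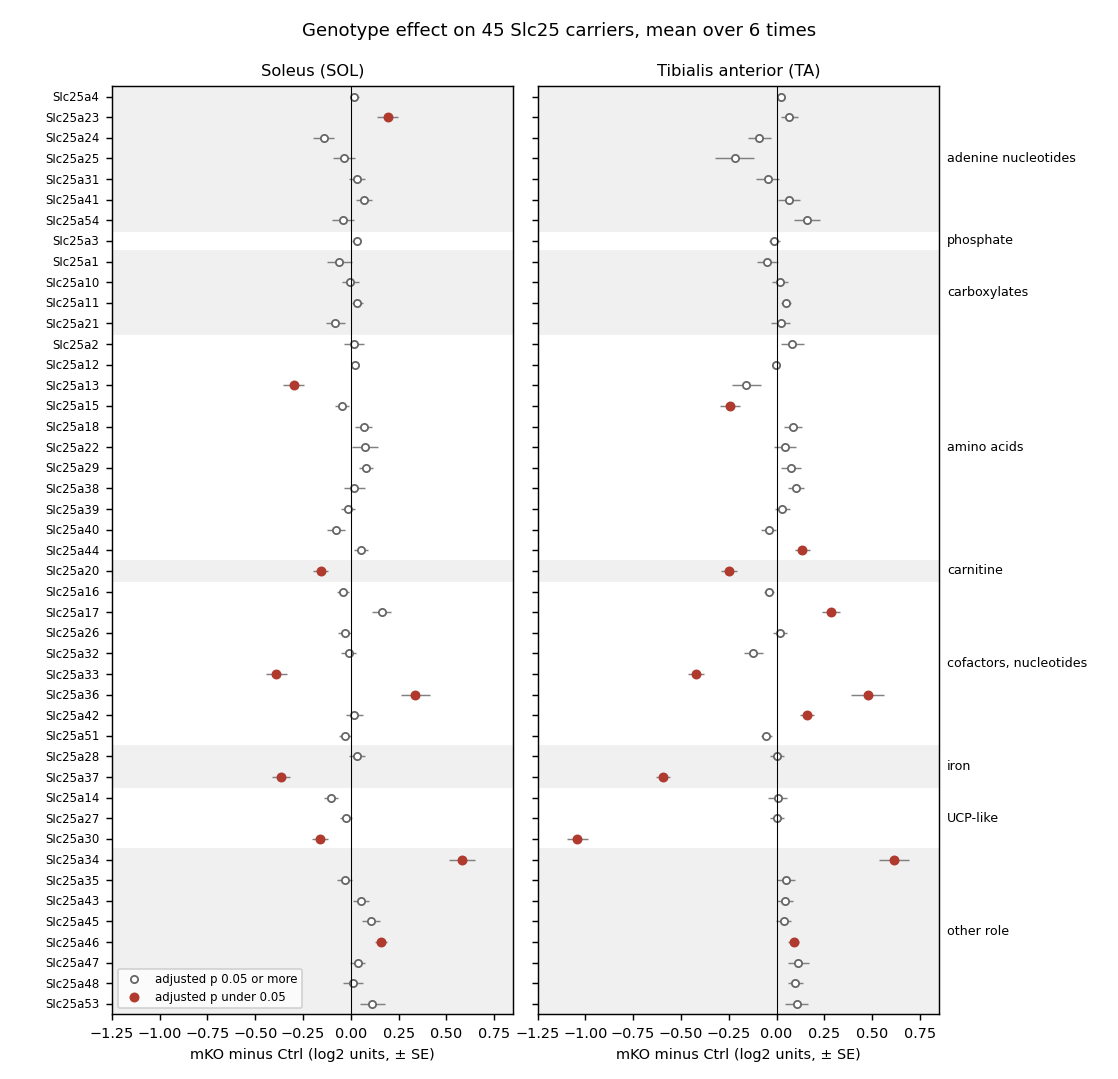
Genotype effect on each of the 45 carriers in SOL (left) and TA (right): points are mKO minus Ctrl in log2 units, averaged over 6 times (18 arrays per genotype), bars are SE, filled points passed an adjusted p of 0.05, and carriers are ordered by substrate. Slc25a30 in TA, at -1.04, lies farthest from 0, and Slc25a34 is the highest point in both muscles.

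At single times, with 3 arrays per genotype, 29 calls were made over the 45 carriers, 10 up and 19 down. In SOL 0 carriers were called at ZT0 (0.553% of all genes) and ZT4 (0.44%), 2 at ZT8 (0.86%), 1 at ZT12 (0.751%), 1 at ZT16 (0.944%) and 2 at ZT20 (1.04%). In TA 2 were called at ZT0 (1.63%), 3 at ZT4 (1.67%), 5 at ZT8 (2.03%), 5 at ZT12 (2.52%), 5 at ZT16 (2.02%) and 3 at ZT20 (1.99%). Slc25a30 and Slc25a37 in TA were the carriers called at all 6 times. At ZT16 and ZT20 the genotypes differed in animal series, as given above.

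The uncoupling-protein-like carriers are relatives of Ucp1 with transport roles that are less settled. Slc25a30, known as the kidney mitochondrial carrier, had the largest change of the family. In TA its signal ran from 7.73 to 9.03 with a median of 8.29 in the 18 Ctrl arrays, and from 7.05 to 7.60 with a median of 7.27 in the 18 mKO arrays. The ranges did not overlap, which held for 0.82% of all genes in TA. The difference was -1.04 ± 0.057 (SE; adjusted p = 1.27e-14), a 2.06-fold lower signal, and it was -0.94 within BM3 animals and -0.88 within BM2 and BM2* animals. In SOL its signal ran from 7.26 to 7.85 (median 7.55) in Ctrl and from 7.08 to 7.64 (median 7.38) in mKO. These ranges overlapped over most of their length, and the difference of -0.16 (adjusted p = 0.00829) was -0.22 (adjusted p = 0.0739) within BM3 and -0.06 (adjusted p = 0.95) within BM2 and BM2* animals. It was not called without replicate B (adjusted p = 0.0884) or replicate C (adjusted p = 0.172).

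The genotype effect on Slc25a30 differed between the muscles. The effect in TA minus that in SOL was -0.88 ± 0.069 (adjusted p = 2.85e-10). In this test 2 carriers were called, both negative, and 2.71% of all genes were called (1.2% positive, 1.52% negative). For Slc25a30 the difference was -0.72 (adjusted p = 9.45e-06) within BM3 and -0.83 (adjusted p = 0.131) within BM2 and BM2* animals. The other 2 carriers of this list, Slc25a14 and Slc25a27, were not called for genotype in either muscle.

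The TA difference of Slc25a30 was present at each of the 6 times and varied in size. At ZT8 the 3 Ctrl arrays read 7.73, 7.85 and 7.92 and the 3 mKO arrays 7.21, 7.25 and 7.49, a difference of -0.52 (adjusted p = 0.0427). At ZT20 the Ctrl arrays read 8.83, 8.84 and 9.03 and the mKO arrays 7.32, 7.38 and 7.11, a difference of -1.63 (adjusted p = 3.3e-09), with the series of the animals as given above. The 3 mKO arrays were below the 3 Ctrl arrays at all 6 times, and the Ctrl mean climbed from 7.84 at ZT8 to 8.90 at ZT20 while the mKO mean was 7.32 and 7.27.

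The mitoferrins bring iron into the matrix for heme and iron-sulfur clusters, Slc25a37 (mitoferrin 1) mainly in red cell precursors and Slc25a28 (mitoferrin 2) widely. Slc25a37 ran from 8.25 to 8.59 (median 8.38) in TA Ctrl and from 7.59 to 7.98 (median 7.81) in TA mKO. Here too the ranges did not overlap, and the difference was -0.60 ± 0.037 (adjusted p = 2.09e-13), 1.51-fold lower. In SOL it ran from 7.65 to 8.15 (median 7.87) in Ctrl and from 7.31 to 7.80 (median 7.44) in mKO, a difference of -0.37 (adjusted p = 7.53e-07), and 15 of 18 mKO arrays lay below the lowest Ctrl array. At all 6 times in both muscles the 3 mKO arrays were below the 3 Ctrl arrays.

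The TA effect on Slc25a37 was larger than the SOL effect, with a difference of -0.23 ± 0.050 (adjusted p = 0.00557). Without replicate A this was -0.20 (adjusted p = 0.364), without replicate B -0.22 (adjusted p = 0.246), within BM3 -0.24 (adjusted p = 0.142) and within BM2 and BM2* animals -0.32 (adjusted p = 0.978). The genotype effects themselves were -0.61 and -0.67 within the series in TA, both called, and -0.37 (adjusted p = 1.94e-04) and -0.35 (adjusted p = 0.276) in SOL. Of 3 erythroid markers 0 were called in either muscle, their estimates ran from 0.07 to 0.09 in SOL and from 0.03 to 0.07 in TA, and their summed level was 8.09 to 8.52 in TA Ctrl and 8.05 to 8.61 in TA mKO. Slc25a28 was not called, at 0.03 in SOL and 0.0016 in TA.

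Among the 8 carriers of cofactors and nucleotides, 1 rose and 1 fell in SOL (7.1% of all genes called) and 3 rose and 1 fell in TA (14.8%). Slc25a33 and Slc25a36, which both carry pyrimidine nucleotides into mitochondria, moved in opposite directions. Slc25a33 ran from 6.81 to 7.64 (median 7.22) in TA Ctrl and from 6.55 to 7.07 (median 6.73) in TA mKO, and from 6.61 to 8.04 (median 7.40) and 6.67 to 7.34 (median 6.94) in SOL. The genotype effect was -0.42 in TA (adjusted p = 1.18e-08). In SOL it was -0.39 (adjusted p = 5.11e-06), and 12 of the 18 TA mKO arrays but 0 of the 18 SOL mKO arrays lay below the lowest Ctrl array. The fall was called within each series in both muscles. By time it was largest at ZT8, -0.81 in TA and -0.57 in SOL, and was also called at ZT12 and ZT16 in TA and ZT20 in SOL.

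Slc25a36 ran from 7.48 to 9.39 (median 8.78) in TA Ctrl and from 8.65 to 9.46 (median 9.13) in TA mKO. The mKO arrays were those of a narrower range near the top of the Ctrl range. The rise was 0.48 in TA (adjusted p = 1.82e-04). In SOL it was 0.34 (adjusted p = 0.00324), and single-time calls were made at ZT8 and ZT12 in TA and at ZT12 in SOL. At ZT12 the TA Ctrl arrays read 7.95, 7.94 and 7.83 and the mKO arrays 8.97, 8.91 and 8.65, a difference of 0.94 (adjusted p = 0.0101), and at ZT8 the difference was 1.02 (adjusted p = 0.00504). At ZT8 replicate C of TA Ctrl read 7.48, against 8.78 and 8.61 in the other arrays of its group. That replicate was of the BM2* series and the other arrays were of BM3. All animals at ZT12, of both genotypes, were of BM2 or BM2*. The low TA Ctrl readings given here were thus all from BM2 or BM2* animals. In SOL the ZT12 arrays read 8.76, 8.02 and 8.78 in Ctrl and 9.44, 8.96 and 9.53 in mKO, a difference of 0.78 (adjusted p = 0.0312). Within BM3 animals, which have none at ZT12, the rise was 0.26 in TA (adjusted p = 0.0981) and 0.31 in SOL (adjusted p = 0.0503). Within BM2 and BM2* animals, compared at ZT8 and ZT12 alone, it was 1.11 in TA (adjusted p = 3.24e-04) and 0.72 in SOL (adjusted p = 0.109). Without replicate A the SOL rise had an adjusted p of 0.0578.

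Slc25a17, which carries CoA, FAD and NAD across the peroxisome membrane, rose by 0.29 in TA (adjusted p = 3.75e-05), from a median of 8.23 to 8.45. The rise was 0.23 (adjusted p = 0.0283) within BM3 and 0.34 (adjusted p = 0.26) within BM2 and BM2* animals, and in SOL the estimate was 0.16 (adjusted p = 0.0539). The SOL rise was called with quantile normalisation (adjusted p = 0.022), the brighter probe sets (0.0251) and an intensity trend (0.042). Slc25a42, the mitochondrial CoA carrier, rose by 0.16 in TA (adjusted p = 0.00221), with estimates of 0.16 within BM3 and 0.09 (adjusted p = 0.876) within BM2 and BM2* animals, and an adjusted p of 0.139 without replicate A. The effects on both were not called as different between the muscles in the main test (0.13, adjusted p = 0.552, and 0.14, adjusted p = 0.102). For Slc25a42 this difference was called with quantile normalisation (adjusted p = 0.0469), the brighter probe sets (0.0447) and array weights (0.0398).

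**Figure D2:**
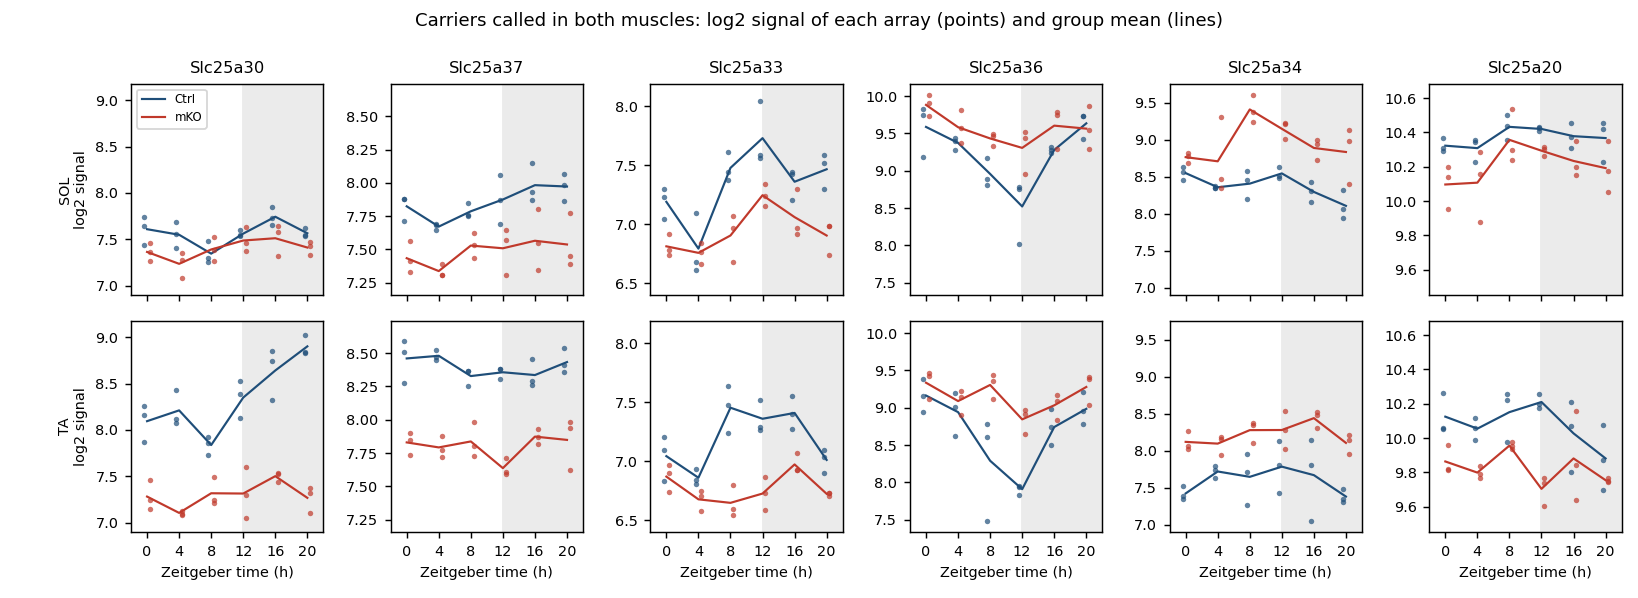
Log2 signal (vertical axis) against Zeitgeber time in h for 6 of the 7 carriers called for genotype in both muscles, with SOL above and TA below: points are single arrays (3 per genotype and time), lines join group means, and the shaded part is the dark phase. Slc25a30 and Slc25a37 in TA have every mKO point below every Ctrl point, and the Slc25a36 traces lie farthest apart at ZT8 and ZT12.

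Of the 8 carriers of unsettled or other role, 2 rose in each muscle and 0 fell, where 7.1% of all genes were called in SOL and 14.8% in TA. Slc25a34, a muscle carrier whose substrate is not settled, ran from 7.94 to 8.63 (median 8.40) in SOL Ctrl and from 8.35 to 9.61 (median 8.99) in SOL mKO. In TA it ran from 7.05 to 8.15 (median 7.58) and from 7.94 to 8.53 (median 8.20). The rise was 0.58 ± 0.070 in SOL (adjusted p = 3.47e-07), 1.5-fold, and 0.62 in TA (adjusted p = 6.46e-07), and the group means were higher in mKO at all 6 times in both muscles. Its largest single-time difference was 1.0 at ZT8 in SOL (adjusted p = 7.37e-04), where Ctrl arrays read 8.57, 8.20 and 8.45 and mKO arrays 9.25, 9.38 and 9.61. Within the series it was 0.45 and 0.74 in SOL, both called, and 0.59 and 0.48 (adjusted p = 0.427) in TA. Slc25a46 rose in SOL, by 0.16 with an adjusted p of 7.67e-04, and in TA, by 0.09 with an adjusted p of 0.0308, and neither was called within a series. The SOL call was lost without replicate C (adjusted p = 0.0678) and the TA call without replicate A, B or C (adjusted p = 0.156, 0.298 and 0.1).

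Slc25a20 exchanges acylcarnitine for carnitine and is the entry point of long-chain fatty acids to oxidation in the matrix. In TA it ran from 9.70 to 10.26 (median 10.07) in Ctrl and from 9.60 to 10.16 (median 9.80) in mKO, a difference of -0.25 (adjusted p = 1.09e-04) that was largest at ZT12, at -0.51 (adjusted p = 0.00491). In SOL it ran from 10.23 to 10.50 (median 10.37) and from 9.88 to 10.53 (median 10.22), and 9 of 18 mKO arrays lay below the lowest Ctrl array. The TA fall was called within each series (-0.22 and -0.45). The SOL fall of -0.16 (adjusted p = 0.00745) was called in neither, at -0.17 (adjusted p = 0.0902) and -0.09 (adjusted p = 0.889), nor without replicate B (adjusted p = 0.36) or C (adjusted p = 0.0587).

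Among the 11 carriers of amino acids and glutathione, 1 fell in SOL (7.1% of all genes called) and 1 rose and 1 fell in TA (14.8%). Slc25a13 is citrin, an aspartate-glutamate carrier of the malate-aspartate shuttle that is best known in liver. In SOL it ran from 6.24 to 7.07 (median 6.67) in Ctrl and from 6.09 to 6.49 (median 6.37) in mKO. The ranges overlapped, and the difference was -0.30 (adjusted p = 2.81e-04), with the mKO mean lower at all 6 times. The fall was -0.32 (adjusted p = 0.00148) within BM3 and -0.47 (adjusted p = 0.109) within BM2 and BM2* animals, and its adjusted p was 0.0535 without replicate B. Without the 5 arrays with raised liver sums, 2 of them of SOL Ctrl, it was -0.33 (adjusted p = 1.54e-04). The TA estimate was -0.16 and not called. Slc25a15, which exchanges ornithine and citrulline, fell in TA, with a difference of -0.24 (adjusted p = 8.36e-04), which was -0.21 (adjusted p = 8.65e-04) without the array that held liver transcripts, on which it stood 0.54 above the other arrays of its group. Within BM2 and BM2* animals it was -0.24 (adjusted p = 0.196). Slc25a44, a carrier of branched-chain amino acids, rose in TA by 0.13 (adjusted p = 0.017), and was not called without replicate A, B or C (adjusted p = 0.113, 0.0901 and 0.125) or within a series. Slc25a12, the main aspartate-glutamate carrier of muscle, was not called, with an estimate of 0.02 in SOL (95% interval -0.02 to 0.07) and of -0.0031 in TA (-0.05 to 0.04).

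The carriers that serve oxidative phosphorylation directly were not called for genotype. Slc25a4, the ADP/ATP carrier of heart and muscle, differed by 0.02 in SOL (95% interval -0.03 to 0.07) and 0.02 in TA (-0.02 to 0.07). The phosphate carrier Slc25a3 differed by 0.03 in SOL (-0.02 to 0.08) and by -0.01 in TA (-0.07 to 0.05). Of the 7 adenine nucleotide carriers 1 rose in SOL (7.1% of all genes called) and 0 were called in TA (14.8%). That carrier was Slc25a23, a calcium-regulated exchanger of ATP-magnesium for phosphate, at 0.19 (adjusted p = 0.0272), which was 0.16 (adjusted p = 0.439) and 0.19 (adjusted p = 0.584) within the series and was not called without replicate B (adjusted p = 0.259) or C (adjusted p = 0.271), nor without the 5 arrays with raised liver sums (adjusted p = 0.0913). Of the 4 carboxylate carriers 0 were called in either muscle, and Slc25a11, the oxoglutarate-malate carrier of the same shuttle, differed by 0.03 in SOL (-0.03 to 0.09) and 0.05 in TA (-0.0038 to 0.11). In SOL, Myh7 and Tnnt1 among 10 fibre markers were also lower in mKO, at -0.11 and -0.17. The endothelial marker Kdr and the tendon marker Scx were higher, by 0.22 and 0.28, each the 1 called of 6. Of the 6 endothelial estimates 4 were above 0 and 2 below, and of the 6 fibroblast and tendon estimates 2 above and 4 below. In TA the adipocyte marker Retn (-0.19), the endothelial marker Vwf (-0.10) and the fibroblast marker Dcn (-0.15) were lower in mKO, each the 1 called of 6. There all 6 adipocyte estimates were below 0, the endothelial ones were 3 above and 3 below, and the fibroblast ones 2 above and 4 below. In TA 0 of 10 fibre markers were called. Of 16 liver markers 0 were called in either muscle, with all 16 TA estimates below 0 (median -0.23). The part of the fibre, fat, vessel and fibroblast markers in the genotype effects was not tested.

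Slow and fast muscle differed in most carriers. In Ctrl, 15 carriers were higher in TA and 14 higher in SOL, where 42.9% of all genes were called (22.9% higher in TA, 20% in SOL). In mKO, 16 were higher in each muscle, where 48.2% of all genes were called (27.8% and 20.4%). The differences were taken within animals, and 26 carriers were called in the same direction in both genotypes.

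The carriers higher in TA of Ctrl animals included those of iron, both at 0.49 or more, with Slc25a37 at 0.55 ± 0.035 and Slc25a28 at 0.49. The uncoupling-protein-like Slc25a30 and Slc25a27 were higher in TA by 0.78 ± 0.049 (adjusted p = 1.67e-14) and 0.54, in 18 of 18 Ctrl animals each. Slc25a25, a calcium-regulated ATP-magnesium carrier, was higher by 0.74 ± 0.064 (adjusted p = 2.64e-11), in 18 of 18 animals with a range from 0.05 to 1.38. Slc25a44 was higher by 0.43, Slc25a26, which carries S-adenosylmethionine, by 0.38 and Slc25a16 by 0.23. The abundant Slc25a12, Slc25a4 and Slc25a11 were higher in TA by 0.17, 0.15 and 0.12. In mKO animals the Slc25a30 difference was -0.10 (adjusted p = 0.0854), with TA higher in 5 of 18 animals, so that the Ctrl difference had no called counterpart in the main test. In mKO it was called with SOL higher without replicate C (-0.149, adjusted p = 0.0105) and without the 5 arrays with raised liver sums (-0.125, adjusted p = 0.0368). The same held with array weights (-0.122, adjusted p = 0.0197).

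By TA minus SOL, the carriers higher in SOL of Ctrl animals were led by Slc25a34 (-0.77), Slc25a13 (-0.77), Slc25a23 (-0.74) and the glutamate carrier Slc25a22 (-0.70). Slc25a34, Slc25a23 and Slc25a22 were higher in SOL in 18 of 18 Ctrl animals, and Slc25a13 in 17 of 18. The exception for Slc25a13 was 0.50 higher in TA, and without the liver-bearing TA array the difference was -0.85. Slc25a36 (-0.55), Slc25a35 (-0.50), Slc25a17 (-0.38), the phosphate carrier Slc25a3 (-0.32 ± 0.027, adjusted p = 8.11e-12), Slc25a20 (-0.30) and the citrate carrier Slc25a1 (-0.26) followed. The 2 aspartate-glutamate carriers thus differed in opposite directions, as did the ATP-magnesium carriers Slc25a25 and Slc25a23.

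Adipocyte markers moved with the muscle difference. All 6 measured adipocyte markers were higher in SOL of both genotypes, with TA minus SOL differences from -0.40 to -1.24 in Ctrl, and their summed level was 11.5 to 12.1 in SOL Ctrl and 10.998 to 11.6 in TA Ctrl. Of 3 brown fat markers 1 was called in Ctrl, Cidea, which was higher in SOL (TA minus SOL of -0.72). The 3 estimates ran up to 0.24, with 1 above 0 in Ctrl and 2 above 0 in mKO. Of 6 endothelial markers 4 were higher in SOL. Of 6 fibroblast and tendon markers 3 were higher in SOL, with the tendon gene Tnmd at -1.252, Scx at -0.32 and Dcn at -0.15, and Col3a1 was higher in TA by 0.16. Their part in the carriers' muscle differences was not tested.

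**Figure D3:**
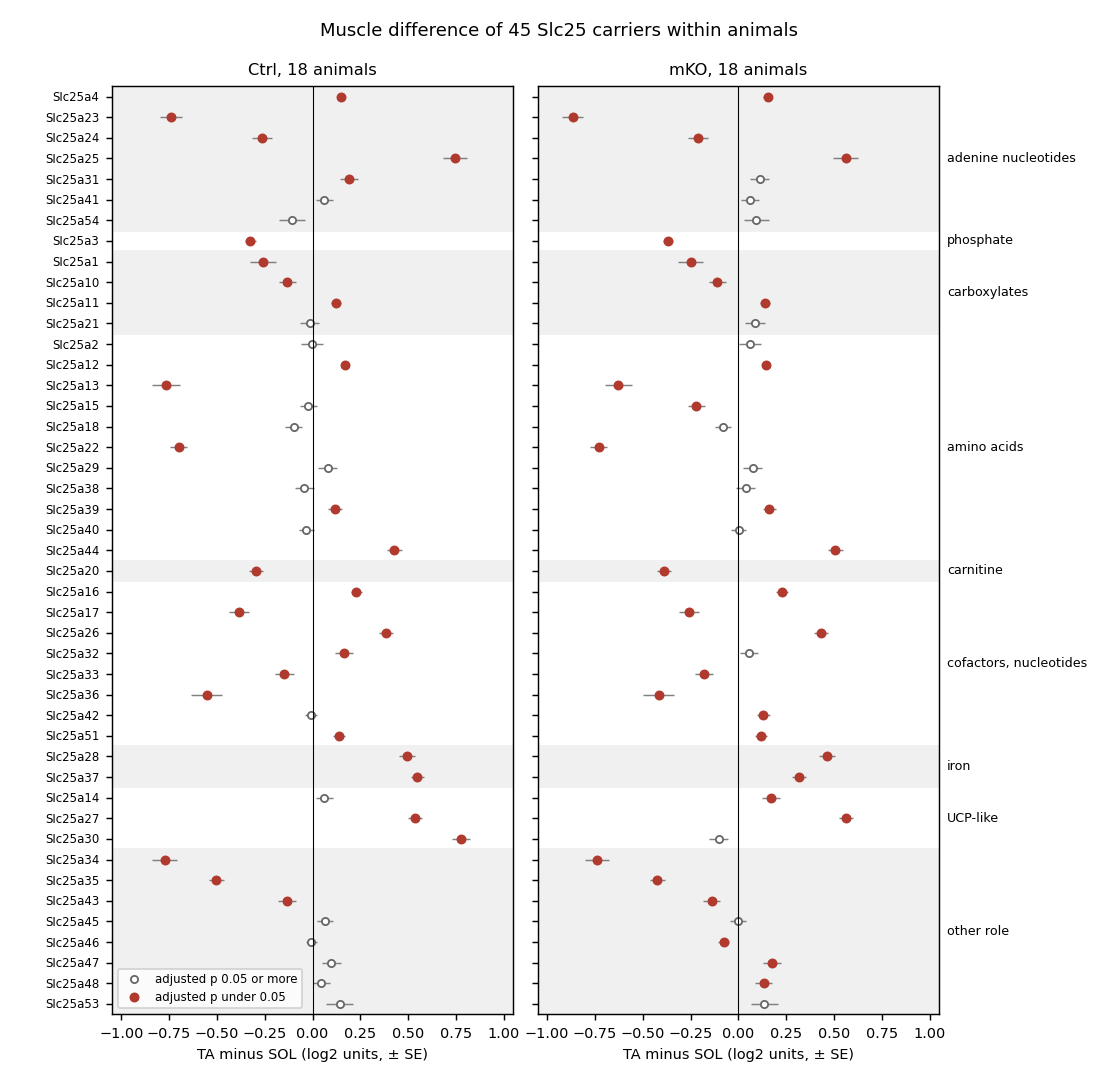
Muscle difference of each of the 45 carriers in Ctrl (left) and mKO (right): points are the mean of TA minus SOL within 18 animals in log2 units, bars are SE, and filled points passed an adjusted p of 0.05. Positive values are higher in TA, and Slc25a30 lies at 0.78 in Ctrl and at -0.10 in mKO.

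A daily course was called in 2 to 6 of the 45 carriers in each set of muscle and genotype. Courses were fitted with a 24 h cosine and sine, and an amplitude is given as the height of the fitted peak over the mean, in log2 units. In SOL Ctrl 6 carriers were called (6.05% of all genes), in SOL mKO 3 (5.68%), in TA Ctrl 6 (2.7%) and in TA mKO 2 (1.76%). Of the 8 cofactor and nucleotide carriers, 4 were called in SOL Ctrl, 3 in TA Ctrl, 1 in SOL mKO and 0 in TA mKO.

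Slc25a22, which brings glutamate into mitochondria, was called in all 4 sets. Its amplitude was 0.58 in SOL Ctrl (adjusted p = 1.1e-05), 0.66 in SOL mKO, 0.37 in TA Ctrl and 0.34 in TA mKO. It peaked in the light phase, at 7.97 h and 8.73 h after lights on in SOL Ctrl and mKO and at 8.22 h and 11.1 h in TA. In SOL Ctrl its arrays read 8.37, 8.06 and 8.33 at ZT8 and 7.17, 7.10 and 6.92 at ZT20, and in SOL mKO 8.53, 8.83 and 9.03 and 7.31, 7.16 and 7.18. The TA calls were lost without replicate A (adjusted p = 0.176 in Ctrl and 0.131 in mKO) or C (0.125 and 0.115). In TA at ZT4 the mKO minus Ctrl difference was -0.58 (adjusted p = 0.0262).

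Slc25a25 had a course in TA of both genotypes, with an amplitude of 0.61 in Ctrl (peak 14.9 h) and 0.66 in mKO (peak 15.3 h). Its TA calls were lost without replicate A (adjusted p = 0.259 and 0.124) or B (0.303 and 0.319), and the TA Ctrl call also with the animal series as a term (0.0767). In SOL its amplitude was 0.14 and 0.15, not called. The difference of its course between the muscles in Ctrl had an adjusted p of 0.0566 (unadjusted p = 3.22e-04). For all carriers, 0 were called in that difference (0.524% of all genes) by limma, and 8 of 45 had an unadjusted p under 0.05, as did 8.76% of all genes. Slc25a42 peaked near lights off in SOL of both genotypes (amplitude 0.22 and 0.25) and in TA Ctrl (0.15), and Slc25a27 in SOL of both (0.16 and 0.15). The Slc25a42 call was lost without replicate C in each of these sets (adjusted p = 0.104, 0.0614 and 0.386) and in both Ctrl sets without replicate A (0.0887 and 0.299). Its TA Ctrl call was also lost with the animal series as a term (0.11), with time as 6 levels (0.281) and without the 5 arrays with raised liver sums (0.065). The Slc25a27 calls were lost without replicate B (0.096 and 0.157) or C (0.352 and 0.181), and the SOL Ctrl call also with the animal series as a term (0.135).

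Slc25a36, Slc25a33 and Slc25a30 were called in Ctrl and not in mKO. Slc25a36 had an amplitude of 0.59 in TA Ctrl (adjusted p = 2.5e-04) and 0.17 in TA mKO (adjusted p = 0.696), and 0.51 and 0.22 in SOL, with its Ctrl peak at 23.1 h and 22.7 h. Slc25a33 ran nearly opposite, with Ctrl peaks at 12.4 h in TA (amplitude 0.27, mKO 0.11) and 14.0 h in SOL (0.32, mKO 0.21). Slc25a30 peaked at 18.2 h in TA Ctrl (0.43, mKO 0.13) and was not called in SOL. The TA Ctrl calls were lost without replicate B for Slc25a36 (adjusted p = 0.0564), replicate C for Slc25a33 (0.272) and replicate A for Slc25a30 (0.114), and the SOL Ctrl call of Slc25a33 without replicate A (0.171). In the main test the peroxisomal Slc25a17 was called in SOL Ctrl alone (amplitude 0.23, adjusted p = 0.0228). That call was lost without replicate B (0.45) or C (0.22), with the animal series as a term (0.195) or with time as 6 levels (0.0678). In TA mKO its course was called with quantile normalisation (amplitude 0.18, adjusted p = 0.0215) and with array weights (0.18, adjusted p = 0.0308). The difference of the course between genotypes was tested directly and called for 0 carriers by limma, in SOL (0.0395% of all genes) and in TA (0.104%). At an unadjusted p under 0.05 it held 1 carrier in SOL and 5 in TA (5.26% and 3.36% of all genes), among them Slc25a33 (0.00176, adjusted 0.515), Slc25a30 (0.00391, adjusted 0.73) and Slc25a36 (0.00807, adjusted 0.99) in TA. A course called in Ctrl and not in mKO is therefore not shown to differ between them.

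**Figure D4:**
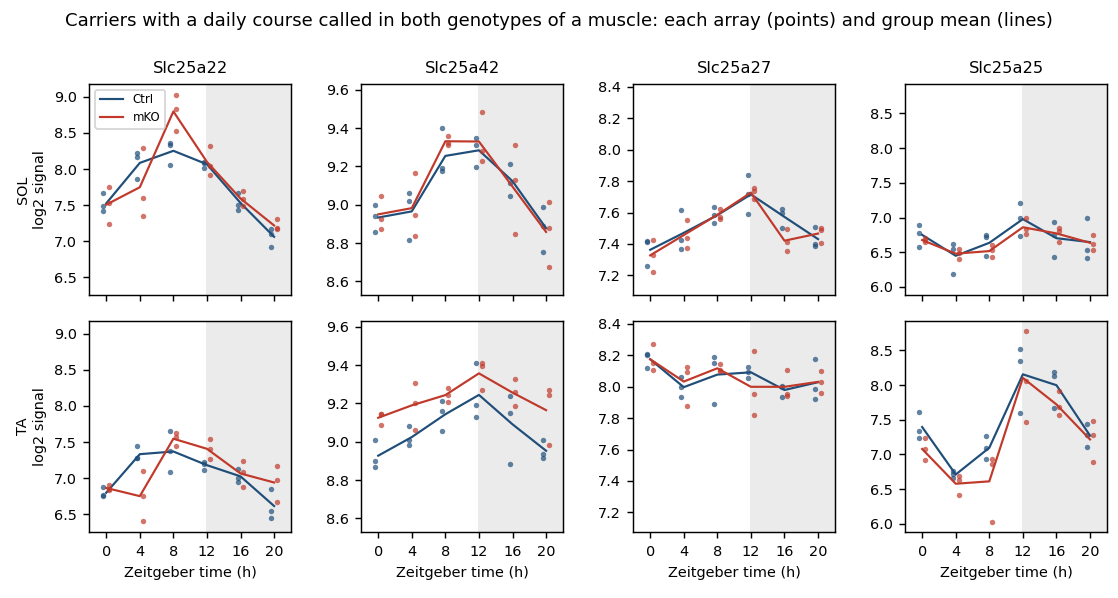
Log2 signal against Zeitgeber time in h for the 4 carriers with a daily course called in both genotypes of a muscle, with SOL above and TA below: points are single arrays (3 per genotype and time), lines join group means, and the shaded part is the dark phase. Slc25a22 is highest at ZT8 in SOL of both genotypes, and Slc25a25 rises between ZT8 and ZT12 in TA.

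The partners of the carriers were 41 measured genes of carrier import, other mitochondrial transport, homologues with other symbols and shuttle enzymes. Of these, 4 rose and 4 fell with genotype in SOL and 10 rose and 4 fell in TA, read against the shares of all genes given above. Mcu, the pore of the mitochondrial calcium uniporter, rose by 0.24 in SOL and 0.30 in TA (adjusted p = 1.87e-07), and Vdac1, the main pore of the outer membrane, was lower, at -0.12 and -0.16. In SOL the glycerol phosphate shuttle enzymes Gpd1 and Gpd2 were lower, at -0.33 and -0.28 (adjusted p = 2.2e-05). In TA the sideroflexin genes Sfxn5 and Sfxn3 rose by 0.33 and 0.32, and their effects were larger in TA than in SOL by 0.35 (adjusted p = 8.22e-04) and 0.38 (adjusted p = 0.00256). Of the 11 genes that bring carriers into the inner membrane, 1 was called in each muscle, Tomm22 at 0.23 in SOL and Timm22 at 0.13 in TA, which are named here after their values were seen.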

How the data were processed

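The authors deposited a table of log2 signals normalised with RMA, per the submitters' processing notes. Its version was not given in the sources used. It held 21225 probe sets, of which 20239 had a gene symbol in the array's annotation and 986 had none. No value was changed before the main tests. Groups, replicate letters and animal numbers came from the labels, and nothing says what a letter stands for.

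All tests used R 4.3.3 with limma 3.58.1, its functions lmFit and eBayes, and Benjamini-Hochberg adjustment over the 20239 genes and a threshold of 0.05. Genotype effects came from 36 arrays per muscle in 12 groups of genotype and time, muscle differences from TA minus SOL within the 36 animals, and daily courses from a cosine and a sine of 24 h. The labels give both muscles of an animal the same number; the median correlation between the 2 muscles of an animal, after group means were subtracted, was 0.046 (over 0.1 in 11 of 36). The code was tested on simulated data.

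The members and lists, and the rule for naming genes, were chosen with earlier results of these data known: members past a threshold, up to 8 per direction or test, at least 1 member per substrate list, and up to 3 related genes per direction by smallest p. Within-series values come from fits of genotype and time to those animals alone. Genotype effects in these fits rest on the times at which the series has both genotypes. These were ZT8 and ZT12 for BM2 and BM2*, and ZT0, ZT4, ZT8 and ZT16 for BM3. The within-series values therefore differ in time as well as in series. Alternatives were each replicate letter, the array with liver transcripts or the 5 arrays with raised liver sums left out, quantile normalisation, the brighter probe sets, array weights, an intensity trend, blocks, the animal series as a term, each animal series alone, and time as 6 levels.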

Additional observations from a re-analysis of the deposited data

Results flagged for a closer look

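The genotype effect on Slc25a30 differed between the muscles, with an effect in TA minus effect in SOL of -0.88 (adjusted p = 2.85e-10). It was -1.04 in TA and -0.16 in SOL.

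The genotype effect on Slc25a37 was also called as different between the muscles, by -0.23 (adjusted p = 0.00557), with -0.60 in TA and -0.37 in SOL. This call was lost without replicate A (adjusted p = 0.364) or B (0.246). It was also lost within BM3 (0.142) and within BM2 and BM2* animals (0.978).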

How the results depend on the processing

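The 100 calls of single carriers were recomputed 1210 times in all under the alternatives. In 1071 of these the call was kept, and in 139 the threshold was not met. Among the calls for genotype, muscle and interaction 0 changed direction. Course calls have no direction, and their peak times were not compared. 40 calls held in every alternative run, among them Slc25a33 and Slc25a34 in SOL and Slc25a20, Slc25a30, Slc25a33 and Slc25a37 in TA for genotype. Leaving out each letter in turn gave 5 to 8 carriers called for genotype in SOL (main 9), 8 to 11 in TA (11), 25 to 29 for the muscle difference in Ctrl (29) and 26 to 30 in mKO (32), 1 to 2 for the interaction (2), 3 to 4 with a course in SOL Ctrl (6), 1 to 3 in SOL mKO (3), 2 to 4 in TA Ctrl (6), 0 to 1 in TA mKO (2), and 10 to 21 calls at single times (29). Each such fit has 48 of 72 arrays. With the brighter probe sets the interaction held 4 carriers and the course difference between muscles 1; with array weights these were 4 and 2, and single times held 49. Array weights also raised the genes called over the whole table from 3000 to 5388 for genotype in TA, from 549 to 1201 for the interaction and from 3330 to 8617 over single times. Over all genes, the calls for genotype in SOL (1436), in TA (3000) and for the interaction (549) were 671 to 902, 1348 to 3244 and 205 to 401 when a letter was left out, 579, 1882 and 208 within BM3, and 167, 377 and 17 within BM2 and BM2* animals. Within BM3 animals 4 carriers were called for genotype in SOL and 1 in the interaction. Within BM2 and BM2* animals 2 were called in SOL, 5 in TA, 19 and 14 for the muscle difference in Ctrl and mKO, and 0 in the interaction; these fits have fewer animals.

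Leaving out the 5 arrays with raised liver sums, an alternative chosen after seeing the data, lost 4 of the 100 calls, namely Slc25a23 for genotype in SOL, Slc25a43 for the muscle difference in Ctrl, Slc25a46 for that in mKO and the Slc25a42 course in TA Ctrl. The animal series as a term lost 4 course calls, given with those carriers, and no genotype call.

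The replicate block gave 9 carriers in SOL and 11 in TA and changed no call of a single carrier. The labels do not say that a letter marks a shared litter, batch or day, so the letters were not used as pairs. After group means were subtracted, the correlation of mKO and Ctrl arrays of the same letter had a median of 0.153 and was above 0.1 for 21 of 36 pairs, and 22 of 36 arrays correlated best with their own letter, a hint from the data and not from the design of something shared by letter. The number of arrays limits effects that can be called, and carriers with low signal, such as Slc25a31 and Slc25a54, are measured nearest the array's floor.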

Other observations

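Outside the Slc25 symbols, 2 genes of the same transport had a daily course in both muscles and both genotypes. Ucp3, the uncoupling protein homologue of muscle, had amplitudes of 1.0 in SOL Ctrl, 1.14 in SOL mKO, 0.53 in TA Ctrl and 0.88 in TA mKO, with peaks between 8.04 h and 9.37 h after lights on. Its course differed between the muscles in Ctrl (adjusted p = 0.0137), its level was higher in TA by 1.06, and its course was not called as different between genotypes (adjusted p = 0.985 in SOL and 0.999 in TA). Cpt1a, which makes the acylcarnitines that Slc25a20 carries, had amplitudes of 0.47, 0.39, 0.43 and 0.32 in the same order, with peaks between 6.88 h and 8.80 h. Slc25a20 itself had amplitudes of 0.06, 0.11, 0.11 and 0.03, none of them called.

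Between the muscles of Ctrl animals the glycerol phosphate shuttle enzymes Gpd1 and Gpd2 were higher in TA by 2.58 and 2.47 (limma adjusted p = 9.22e-27 and 1.38e-28). Cpt2, which acts on the acylcarnitines inside the matrix, was higher in SOL, with a TA minus SOL difference of -0.55, as was Micu2, a regulator of the calcium uniporter, at -1.0. Of the 41 partner genes 16 were higher in TA and 15 in SOL, where 42.9% of all genes were called (22.9% and 20%).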
